A study of Rattus norvegicus with 12 samples.

Results

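The early response of rat aortic vascular smooth muscle cells to angiotensin II (Ang II) was described by comparing cells after 6 h of Ang II with untreated cells across all measured genes. The comparison used 6 of the study's 12 arrays: the 3 labelled as treated with Ang II for 6 h and the 3 labelled as untreated, or 0 h. Genes were taken as 1 probe set per gene, namely the brightest probe set that carried exactly 1 gene symbol, which gave 14506 genes. All cells came from the aorta of Sprague-Dawley rats, were grown in medium M199 with 10% fetal bovine serum and were kept without serum for 48 h, so the untreated group is a serum-deprived culture. The treated group received 100 nM Ang II, and its RNA was measured on the Affymetrix Rat Gene 1.0 ST platform. The remaining 6 arrays hold cells after 12 h and 24 h of Ang II and entered here through the shared estimate of the spread and through the direct comparison of 6 h with the later times. The treatment protocol in the labels gives times of 1, 3 or 24 h, which conflicts with the 6, 12 and 24 h of titles and design text, and the titles were followed. The arrays of a group are labelled as biological replicates, with nothing said on whether animals or dishes were separate, and p-values therefore speak only of array-to-array spread. As no untreated culture of matching age was analysed here, Ang II and time in culture cannot be told apart.

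Ang II is the active peptide of the renin-angiotensin system. In smooth muscle it acts mainly through the type 1 receptor, which couples to Gq proteins and phospholipase C, releases calcium, activates protein kinase C and, through kinases of the Src, MAP kinase and JAK families, alters transcription. Vascular smooth muscle answers it with contraction within moments and, over hours, with growth, matrix production and inflammatory signals.

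The cells carried the markers of their label. Of 15 smooth muscle markers measured, 14 lay in the brightest of 4 equal level classes and 0 in the dimmest, and their summed linear level was 106085 to 107604 on the untreated arrays and 107163 to 109507 at 6 h. Of the 15, 4 passed as higher and 4 as lower (26.7% each), where 18.6% of all genes were higher and 17.2% lower. Des (desmin) rose by 0.48 on the log2 scale and Myh11 (smooth muscle myosin heavy chain) fell by 0.24. The 16 leukocyte markers summed to 1229 to 1248 untreated and 1264 to 1292 at 6 h, and 0 of them passed the test by limma's moderated test. At an unadjusted p below 0.05 1 was higher and 0 lower. The 14 endothelial markers summed to 1603 to 1657 and 1528 to 1637, with 1 member higher (7.14%) and 2 lower (14.3%). The higher one lost its call without untreated replicate 3 or Ang II 6 h replicate 3. The 15 fibroblast and adventitial markers were brighter, and their sum was 25088 to 25570 untreated and 22286 to 23142 at 6 h. In that list 6 members fell (40.0%) and 1 rose (6.67%), the rise being lost without Ang II 6 h replicate 1 or 3. Pdgfra, a growth factor receptor of fibroblasts, read 9.63, 9.67 and 9.64 on the untreated arrays and 8.31, 8.29 and 8.17 at 6 h, a log2 difference of -1.39 ± 0.063 (SE, n = 3 per group). In such bulk RNA fewer cells of a type and less RNA per cell cannot be told apart, and the part of other cell types in the results below was not tested. Markers of epithelial, neural and fat cells summed to 1612 to 1629 untreated and 1917 to 1995 at 6 h. In that sum Krt18, a keratin of simple epithelia, went from 7.28 to 8.77 log2 units. Of the 17 measured, 2 passed as higher (11.8%) and 0 as lower, and at an unadjusted p below 0.05 by limma these were 2 and 1.

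The 2 groups stood apart across many genes by small amounts. Across genes, correlations were 0.9977 to 0.9984 between arrays of the same group and 0.9872 to 0.9886 between untreated and 6 h arrays, where genes are not independent replicates. At an adjusted p under 0.05 (limma, Benjamini-Hochberg over all genes) 2703 genes were higher at 6 h, which is 18.6% of those tested, and 2488 were lower, or 17.2%, together 35.8%. The arrays of the groups did not overlap for 6845 genes, 47.2% of all. With 3 arrays against 3, an exact permutation test of a single gene cannot go below p = 0.1.

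Most of these differences were small. The median fold of the genes that passed was 1.25 among those higher and 1.26 among those lower, and 80.8% of all that passed changed by less than 1.5-fold. At 1.5-fold or more there were 468 higher genes (3.23%) and 529 lower (3.65%). At 2-fold or more there were 158 and 147, at 3-fold 38 and 37, and at 4-fold 25 and 10. The balance therefore turned from even at 3-fold to a majority of rises at 4-fold. At 8-fold or more 5 genes were higher and 1 was lower. Over all genes the log2 difference had a median of 0.01, with the 5th percentile at -0.49 and the 95th at 0.47. The median standard error was 0.0667, which bounds what the 3 arrays per group could show. For 5928 genes (40.9%) the 95% interval of the difference stayed within 1.2-fold either way, and for 12800 genes (88.2%) within 1.5-fold.

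The share of genes that passed depended on how bright the gene was. In the dimmest level class 2.15% of genes were higher and 2.45% lower, and in the next 10.3% and 13.6%. In the class above these shares were 28.7% and 27.4%, and in the brightest 33.3% and 25.1%. The standard error fell along these classes from a median of 0.0972 to 0.0463. For a number of lists the members in the brightest class, or those above the median level, are therefore given, to be read against the shares of those classes. The other lists were set only against all genes, without regard to level. Receptors of smell, pheromones and taste, which most cells outside the sensory organs do not use, gave the low end: of 1260 measured, 35 (2.78%) were higher and 6 (0.476%) lower, and 1163 of them were in the dimmest class. Without Ang II 6 h replicate 2 the count of higher members was 23, and the count of lower ones was 10 without untreated replicate 2 and 3 without Ang II 6 h replicate 1. The untreated level of these receptor genes had a median of 4.80 and a 95th percentile of 6.47 log2 units. Among the genes described below, Usp18, Serpinb2 and C3h15orf48 had an untreated mean under that percentile, and Palmd, Chek2, Esr2, Map2k6 and Tlr2 a mean at 6 h under it. Their differences are therefore read as lower bounds. For Meox2 both means were under it, and no size is given.

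**Figure D1:**
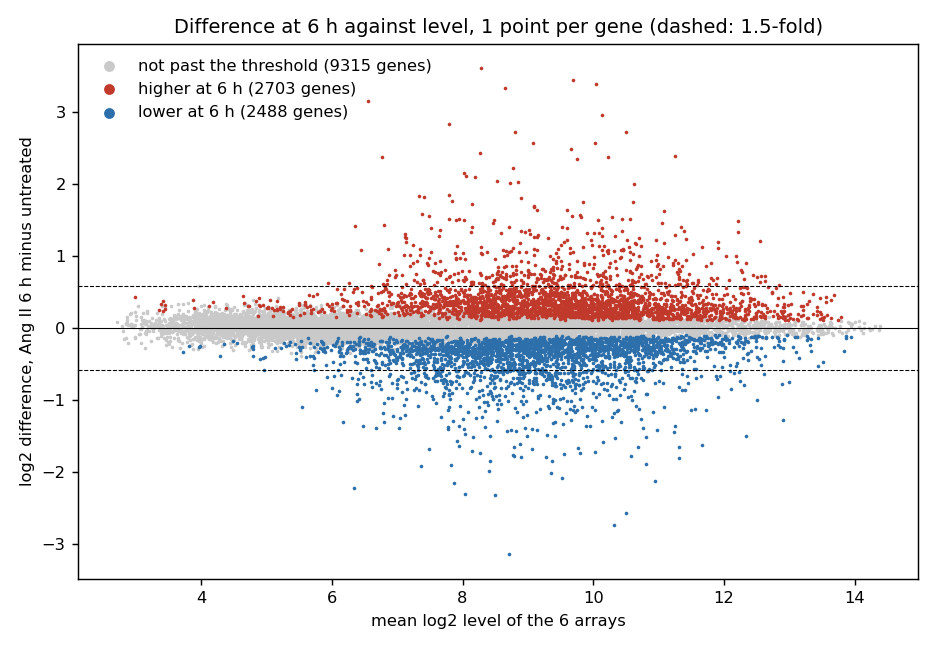
Log2 difference between cells after 6 h of Ang II and untreated cells (y axis) against the mean log2 level of the 6 arrays (x axis), with 1 point for each of 14506 genes; red points passed the test as higher, blue as lower and grey did not pass, and dashed lines mark 1.5-fold. Genes that passed lie mostly inside the dashed lines, and few of them lie at the dim end.

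Behind the 10 largest rises came a mixed group of secreted, surface and signalling genes. Only genes that passed and whose arrays did not overlap between the groups were ranked. The separation of ranked genes was thus fixed by that choice. Slco2a1, which encodes the prostaglandin transporter, read 8.76, 8.69 and 8.80 untreated and 11.31, 11.30 and 11.32 at 6 h. Its log2 difference was 2.56 ± 0.068 (SE, n = 3 per group; limma adjusted p = 2.38e-10), a 5.91-fold rise. The lowest 6 h array was far above the highest untreated array. Flt1, receptor 1 of vascular endothelial growth factor, went from 8.44, 8.41 and 8.39 to 10.79, 10.93 and 10.97, a difference of 2.49 ± 0.053. Acan, the cartilage proteoglycan aggrecan, went from 10.10, 10.09 and 9.99 to 12.44, 12.46 and 12.44, a difference of 2.38 ± 0.042. The 6 h arrays of Acan lay close together and far above the untreated ones. Sema7a, a membrane-anchored semaphorin, rose by 2.37, and Serpinb2, plasminogen activator inhibitor 2, rose by 2.37 from a dim untreated mean of 5.58. Fosl1, the AP-1 subunit Fra-1, went from 8.61, 8.56 and 8.56 to 10.81, 10.94 and 11.02, a difference of 2.35 ± 0.061.

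Structural, channel and signalling genes were also among the rises of ranks 11 to 30. Nes, the intermediate filament protein nestin, rose by 2.16, and Klhl41, a kelch protein of the sarcomere, by 2.11. Kcnn4, a calcium-activated potassium channel, read 7.39, 7.69 and 7.41 untreated and 9.43, 9.59 and 9.62 at 6 h, a difference of 2.05 ± 0.091. Its 3 treated arrays were all above the untreated ones. Baiap2, an adaptor between small GTPases and actin, rose by 2.02, and the chemokine gene Cxcl16 by 2.01. Chrdl2, a chordin-like antagonist of bone morphogenetic proteins, rose by 1.82, while Bmp3, a member of that ligand family, fell by 1.73. Nabp1, Gldn (gliomedin), Hivep3 and C3h15orf48 rose by 2.10, 2.43, 1.80 and 1.83.

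The falls of ranks 11 to 30 held genes of several kinds. Pde1a, a cyclic nucleotide phosphodiesterase activated by calcium and calmodulin, read 9.48, 9.35 and 9.39 untreated and 7.40, 7.35 and 7.50 at 6 h, a difference of -1.99 ± 0.071 (limma adjusted p = 1.78e-09). Npr3, the clearance receptor of natriuretic peptides, went from 11.71, 11.74 and 11.81 to 9.98, 9.72 and 9.89, a difference of -1.89 ± 0.082. In both genes every 6 h array was below every untreated array by more than the spread within either group. Met, the hepatocyte growth factor receptor, Nrg1, the growth factor neuregulin 1, and the cytokine gene Il15 fell by 1.79, 1.79 and 1.68. Cdo1, cysteine dioxygenase, went from 12.26, 12.25 and 12.14 to 10.53, 10.30 and 10.35, a difference of -1.82 ± 0.10, and Fmo2, a flavin monooxygenase, fell by 1.68. Palmd (palmdelphin) fell by 1.93, Dync1i1 (a dynein intermediate chain) by 1.91 and the myosin-binding protein gene Mybphl by 1.80. Mllt3, Sh2d4a and Gbp5 fell by 1.77, 1.68 and 1.71. Fos, Egr2 and Egr3, transcription factor genes of the immediate response to stimuli, were below the untreated level by then, at -1.85, -1.74 and -1.79. The untreated arrays of Fos spread from 10.01 to 10.46, wider than those of most genes.

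**Figure D2:**
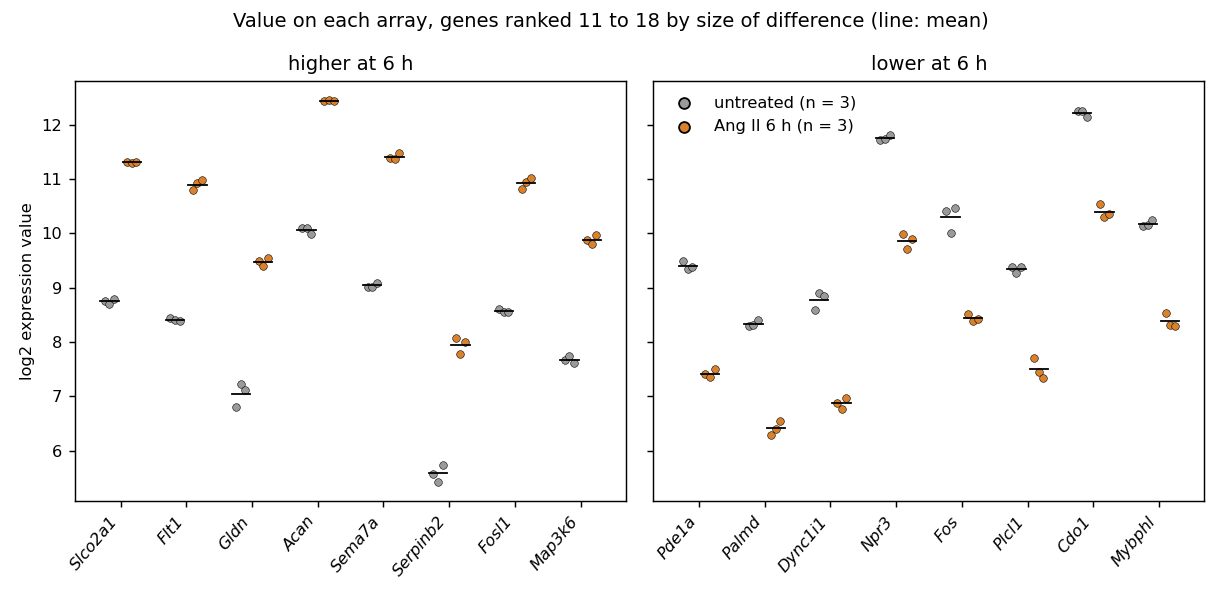
Log2 expression value (y axis) on each of the 3 untreated arrays (grey) and the 3 arrays after 6 h of Ang II (orange) for the genes ranked 11 to 18 by size among those higher (left) and lower (right); horizontal lines are group means. Genes entered the ranking only if their groups did not overlap, so the separation was fixed by the choice of genes.

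Promoters were looked at for short factor motifs because many genes moved together. A RefSeq table for the rat assembly GRCr8 held the 250 bases before the start of 11951 of the genes tested, 387 of them higher by 1.5-fold or more and 424 lower. The GC box (GGGCGG, either strand) was in 47.3% of all these promoters, in 66.1% of those of the higher genes and in 50.9% of those of the lower genes. Since genes that passed were bright, the share among the 6114 promoters of the brighter genes was set beside them, and it was 63.5%. The motif of EGR factors (GCGNGGGCG) was in 6.69% of all, 8.98% of the brighter genes' promoters, 11.4% of the higher and 6.84% of the lower genes' promoters. The ETS motif (CCGGAAG) was rarer in both moving groups, with 7.49% of the higher and 7.55% of the lower genes against 11.2% of all and 17.8% of the brighter genes. The cell-cycle element called CHR (TTTGAA) was in 13.9% of all, 9.76% of the brighter, 9.04% of the higher and 15.6% of the lower genes' promoters. The cyclic AMP element (TGACGTCA) was in 2.28%, 3.06%, 2.84% and 2.36% in the same order. The AP-1 motif (TGANTCA) was in 5.48%, 3.91%, 6.46% and 5.19%, and the TATA box (TATAAA) in 11.2%, 5.66%, 6.72% and 10.8%. GC boxes and EGR motifs can overlap, because both are rich in G and C, and the median GC content was 57.2% over all promoters, 61.2% in the brighter genes, 63.2% in the higher and 59.2% in the lower genes. These shares are descriptions of letters in the window, without a test.

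Stretches of 100 bases from 5 promoters show what such motifs look like in genes of large difference. Capitals mark the motif, and the sequences run 5′ to 3′ on the gene's strand. Flt1 (chr12:12333260-12333359, plus strand, GRCr8) and Actr3b, an actin-related protein gene that rose by 1.5 (chr4:10089382-10089481, minus strand), hold a cyclic AMP element. Creld2, a secreted protein of the endoplasmic reticulum that rose by 0.75 (chr7:121789198-121789297, plus strand), holds the endoplasmic reticulum stress element in reverse orientation, a long motif found in 0.126% of all promoters. Plpp3, a phosphatase that clears lysophosphatidic acid and fell by 2.14 (chr5:125155750-125155849, plus strand), and Palmd (chr2:207626240-207626339, minus strand) hold a CHR, in Palmd in reverse orientation.
Flt1: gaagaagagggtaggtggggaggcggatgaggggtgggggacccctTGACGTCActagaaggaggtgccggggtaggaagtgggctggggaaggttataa
Actr3b: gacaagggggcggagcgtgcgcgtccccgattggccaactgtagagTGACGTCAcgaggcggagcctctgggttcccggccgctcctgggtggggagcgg
Creld2: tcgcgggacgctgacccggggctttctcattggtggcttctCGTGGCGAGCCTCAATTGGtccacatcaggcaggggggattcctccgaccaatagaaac
Plpp3: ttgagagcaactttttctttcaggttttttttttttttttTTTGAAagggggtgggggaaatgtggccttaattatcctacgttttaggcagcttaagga
Palmd: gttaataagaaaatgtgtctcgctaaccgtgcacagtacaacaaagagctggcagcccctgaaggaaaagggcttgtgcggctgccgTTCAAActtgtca
The Flt1 and Actr3b stretches share the same uninterrupted palindrome in different surroundings. A match does not show that a factor binds there.

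The receptor for Ang II itself fell. Agtr1a, the main type 1 receptor gene of rodent vessels, read 11.75, 11.80 and 11.80 untreated and 9.29, 9.10 and 9.27 at 6 h, a difference of -2.57 ± 0.057. Agtr1b, the second type 1 gene of rodents, had a difference of 0.16 ± 0.082 (limma adjusted p = 0.163), and Agtr2, the type 2 receptor gene, of -0.08 ± 0.13 (adjusted p = 0.7), neither past the threshold. Of 58 other G protein-coupled receptor genes of vessels measured, 9 rose and 11 fell, shares close to the background of 18.6% and 17.2%. Receptors for lysophosphatidic acid stood among the falls. Lpar4 went from 9.14, 9.21 and 9.25 to 7.03, 6.81 and 6.83, a difference of -2.31 ± 0.087, and Lpar1 and Lpar3 differed by -1.41 and -0.68. Adra1b, the alpha-1B adrenergic receptor that mediates constriction by noradrenaline, went from 8.87, 8.83 and 8.61 to 7.17, 7.11 and 7.08, a difference of -1.65 ± 0.10. Ackr3, a scavenging chemokine receptor, and P2ry6, a receptor for uridine diphosphate, fell by 1.66 and 1.61. Receptors cleaved by proteases moved the other way: F2rl2 rose by 1.58, F2rl1 by 1.39 and F2r, the thrombin receptor, by 0.61. S1pr1, a receptor for sphingosine 1-phosphate, rose by 1.15, and Avpr1a, the vascular vasopressin receptor, by 0.58.

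Genes that carry the signal from Gq to calcium and protein kinase C split. Of 43 measured, 13 rose (30.2%) and 10 fell (23.3%), both above the shares of all genes. Of the 43, 27 lay above the median level, where by level class 28.7% to 33.3% of genes rose and 25.1% to 27.4% fell. The median log2 difference was 0.04 against 0.01 for all genes. Plcl1, an inactive relative of phospholipase C, read 9.39, 9.26 and 9.38 untreated and 7.71, 7.45 and 7.33 at 6 h, a difference of -1.85 ± 0.10. Plce1 (phospholipase C epsilon) and Prkce (protein kinase C epsilon) fell by 1.44 and 1.27, while Prkca (protein kinase C alpha) rose by 0.31. The receptor kinase genes Grk2, Grk5 and Grk6, whose products switch receptors off, rose by 0.36, 0.71 and 0.83, and Grk4 fell by 0.25. Dgkg, a diacylglycerol kinase that removes the lipid activator of protein kinase C, rose by 1.19. With a further quantile normalization the median of this list was -0.0034, so no direction is given to it as a whole.

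Genes of cyclic AMP signalling rose more often than the background. Of 30 measured, 16 rose (53.3%) and 5 fell (16.7%), where 13 of the 30 belong to the brightest level class with its 33.3% and 25.1%. Akap12, an anchor of protein kinase A, read 8.90, 8.87 and 8.93 untreated and 10.38, 10.49 and 10.48 at 6 h, a difference of 1.55 ± 0.044 (limma adjusted p = 3.81e-10). The groups were separated by far more than the spread within them. The regulatory subunits Prkar1b and Prkar2a rose by 1.01 and 0.61, and the transcription factors Crem and Creb1 by 0.84 and 0.50. Of the adenylyl cyclases, which make cyclic AMP, Adcy4 and Adcy3 rose by 0.62 and 0.34, and Adcy2 and Adcy5 fell by 0.95 and 0.45. The exchange factors for Rap that bind cyclic AMP also diverged, with Rapgef4 at 0.52 and Rapgef3 at -0.74.

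In the MAP kinase cascade 19 of 49 genes rose (38.8%) and 8 fell (16.3%). Kinases of its upper levels were among the rises and among the falls. Map3k6 went from 7.67, 7.73 and 7.61 to 9.88, 9.81 and 9.97, a difference of 2.22 ± 0.064, and Map2k3, an activator of p38, from 10.48, 10.51 and 10.48 to 11.65, 11.71 and 11.67, a difference of 1.19 ± 0.044. In both genes all treated arrays were above all untreated ones. Map2k1, an activator of ERK, rose by 0.76, whereas Map2k6 and Map2k5, activators of p38 and ERK5, fell by 0.71 and 0.66. The adaptor genes Gab1 and Gab2 fell by 1.16 and 0.38, and the adaptor Shc1 rose by 0.50. Of the 19 rises 13 were larger at 6 h than at both later times by direct test, where 45.5% of all rises were.

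Other kinase pathways followed different balances. Of 47 genes of PI3 kinase, AKT and mTOR 14 rose (29.8%) and 15 fell (31.9%), with a median of -0.02. Both shares were above the 18.6% and 17.2% of all genes. Of the 47, however, 41 lay above the median level, where by level class 28.7% to 33.3% of genes rose and 25.1% to 27.4% fell. The share of rises was thus within the range of these classes, and that of falls above it. Trib1, a pseudokinase, rose by 1.57, Inpp4b, a lipid phosphatase, by 1.35 and Sgk1, a kinase related to AKT, by 1.05. The regulatory subunit Pik3r3, the inhibitor Pik3ip1 and the insulin receptor gene Insr fell by 1.22, 0.83 and 0.52. Of 35 genes of JAK and STAT signalling 15 rose and 4 fell (42.9% and 11.4%). Both activators and brakes were among the rises: Osmr, the oncostatin M receptor, by 1.03, Stat3 by 0.66, the phosphatase gene Ptpn1 by 1.09 and the inhibitors Socs5 and Socs3 by 0.73 and 0.45. The receptor subunits Lifr and Il6st were among the falls, at -0.40 and -0.21.

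Of 34 genes of the NF-kappaB pathway 17 rose and 8 fell, both shares above the 18.6% and 17.2% of all genes. The median log2 difference was 0.21. Of the 34, 28 lay above the median level, where by level class 28.7% to 33.3% of genes rose and 25.1% to 27.4% fell. The share of rises was above the range of these classes, and that of falls below it. The rises were of moderate size. Ripk2 went from 9.01, 8.86 and 9.15 to 9.74, 9.73 and 9.79, a difference of 0.75 ± 0.075. The adaptors Bcl10 and Myd88 rose by 0.62 and 0.55, the receptor Tnfrsf1a by 0.53, and the kinases Chuk and Ikbkb by 0.34 and 0.33. The toll-like receptor genes Tlr4 and Tlr2 fell by 0.36 and 0.22, and the inhibitor Tnip1 by 0.31. Without Ang II 6 h replicate 2 the count of falls was 5 in place of 8. Leukocyte markers, whose values are given above, were dim in both groups, and the part of leukocytes in these counts was not tested.

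Transcription factor families differed in their direction. Nuclear receptors, which respond to hormones and lipids, fell more often than the background: of 35 measured 17 fell (48.6%) and 6 rose (17.1%), with a median of -0.13. Thrb, a thyroid hormone receptor, read 10.67, 10.68 and 10.65 untreated and 8.92, 8.88 and 8.97 at 6 h, a difference of -1.74 ± 0.045. Nr3c1, the glucocorticoid receptor, went from 11.34, 11.29 and 11.37 to 10.56, 10.51 and 10.61, a difference of -0.77 ± 0.05. In both Thrb and Nr3c1 the groups did not overlap. The oestrogen receptors Esr1 and Esr2, the vitamin D receptor Vdr and the partner subunits Rxra and Rxrb fell by 0.36, 0.75, 0.45, 0.52 and 0.39. Of the PPAR group, receptors for fatty acids, Ppara and Ppard rose by 0.29 and 0.29. The orphan receptors of the Nr4a group, which are induced by many stimuli, were split, with Nr4a3 at 1.07 and Nr4a1 at -1.36. The count of rises was 3 without untreated replicate 1, without Ang II 6 h replicate 1 or without Ang II 6 h replicate 3.

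Among ETS factors 8 of 20 measured rose (40.0%) and 2 fell (10.0%). Elk3 stood at 0.82, Etv5 at 0.78, Ets2 at 0.76 and Ets1 at 0.38, and Etv1 and Erg at -0.59 and -0.34. Of 29 CCAAT/enhancer and other bZIP factors 11 rose (37.9%) and 9 fell (31.0%), both above the shares of all genes. The falls there were the larger ones. Atf3, a factor of the stress response, stood at -1.48 ± 0.16. Its untreated arrays spread from 8.38 to 9.03, wider than those of most genes. Dbp, an output factor of the circadian clock, stood at -1.32 and Jdp2, a repressor of AP-1, at -0.83. Bach1, a repressor of haem-responsive genes, rose by 0.66. The count of 11 was 6 without untreated replicate 1 or without Ang II 6 h replicate 3, and 7 without untreated replicate 2.

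Families of factors that mark cell identity and position had shares of falls near or moderately above the background of 17.2%. Of 22 HOX genes, which mark the position along the body axis, 6 fell (27.3%) and 2 rose (1 without untreated replicate 2 or without Ang II 6 h replicate 1 or 3), with Hoxa2, Hoxa4, Hoxd3 and Hoxa7 at -0.76, -0.60, -0.55 and -0.55. Of 14 SOX genes 3 fell (21.4%) and 0 rose, and at an unadjusted p below 0.05 these were 4 and 0. Sox4 went from 9.77, 9.92 and 9.86 to 8.51, 8.34 and 8.46, a difference of -1.42 ± 0.079. Among 52 T-box, GATA, MEF2 and related factors 13 rose and 16 fell (30.8%). Meox2, a homeobox gene of muscle precursors and vessels, passed as lower. Tfap2b, Tbx18, a gene of mural cell precursors, and Gata6, a factor of vascular smooth muscle, fell by 1.11, 0.83 and 0.77. Twist2, Runx2, Runx1 and Twist1, factors of mesenchyme and bone, rose by 0.70, 0.53, 0.44 and 0.41. Of the forkhead genes Foxn3 fell by 1.66 and Foxs1 rose by 1.25, within 3 rises and 7 falls (24.1%) of 29, and the rises numbered 5 without untreated replicate 3.

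Chromatin regulators fell more often than they rose. Of 78 measured 32 fell (41.0%) and 13 rose (16.7%), with a median of -0.10, which was -0.11 after a further quantile normalization and -0.08 after centring each array on its median. In the brightest class, to which 37 of them belong, 25.1% of all genes fell. Smarca2, an ATPase of the SWI/SNF remodelling complex, went from 9.97, 9.90 and 9.89 to 9.07, 9.02 and 9.15, a difference of -0.84 ± 0.049. Cbx3, a heterochromatin protein, fell by 0.73, the methyltransferase gene Setd7 by 0.61, the demethylase gene Kdm4a by 0.56 and the acetyltransferase gene Kat2b by 0.40. The largest rises were Dot1l, a histone methyltransferase, from 9.12, 9.09 and 9.07 to 10.16, 10.16 and 10.28, and Hdac6, a deacetylase of tubulin, by 0.93. Every treated array of Dot1l was above every untreated one, and its difference was 1.11 ± 0.06. Of 63 genes of the general transcription machinery 17 rose (27.0%) and 14 fell (22.2%), both shares above those of all genes. But 55 of the 63 lay above the median level, where by level class 28.7% to 33.3% of genes rose and 25.1% to 27.4% fell. Both list shares were below those of these classes. Of these 63, 27 are in the brightest class. Of 74 splicing factors 16 rose and 16 fell (21.6% each). As 45 of the 74 are in the brightest class, where 33.3% of genes rose and 25.1% fell, both shares were below those of that class. Of 179 C2H2 zinc finger genes 25 rose and 35 fell, and the rises numbered 14 without Ang II 6 h replicate 3 and 16 without untreated replicate 1.

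Genes that process ribosomal and transfer RNA rose together. Of 76 genes for their modification and for nucleolar proteins, 43 rose (56.6%) and 6 fell (7.89%), and the median log2 difference was 0.20. Only 14 of the 76 belong to the brightest level class. Utp15, a protein of the early pre-ribosome, went from 8.47, 8.46 and 8.48 to 9.15, 9.09 and 9.10, a difference of 0.64 ± 0.055. The groups did not overlap. Noc4l, Heatr1 and Utp4, also of the pre-ribosome, rose by 0.59, 0.51 and 0.49. Naf1, which assembles a class of small nucleolar particles, Nat10, which acetylates RNA, and Trmt61a and Pus3, which modify transfer RNA, rose by 0.58, 0.50, 0.53 and 0.47, and the RNA polymerase III subunits Polr3f and Polr3g by 0.59 and 0.51. Of the 43 rises 38 were larger at 6 h than at both 12 h and 24 h by direct test, where 45.5% of all rises were. Without Ang II 6 h replicate 2 the falls numbered 3.

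The proteins of the ribosome itself did not follow. Of 71 cytosolic ribosomal protein genes 0 rose (and 0 at an unadjusted p below 0.05, by limma) and 9 fell, with a median of -0.06, although 67 of them are in the brightest class. The falls were small, with Rpl15 at -0.31 and Rpl3 at -0.17. Their number depended on the fit: it was 4 without untreated replicate 2, 27 with a further quantile normalization and 20 with a trended and robust variance, while 0 rose in each. Of 68 mitochondrial ribosomal genes 9 rose (13.2%) and 14 fell (20.6%), and 5 rose without untreated replicate 3 or Ang II 6 h replicate 3. Translation factors rose in 17 (39.5%) and fell in 11 (25.6%) of 43, and 7 fell without untreated replicate 2. Of the 43, 33 are in the brightest class, where 33.3% of genes rose and 25.1% fell. The cap-binding protein gene Eif4e rose by 0.44 and Eif6, which keeps the ribosomal subunits apart, by 0.47. The helicase gene Eif4a2 went from 11.80, 11.88 and 11.82 to 11.08, 11.03 and 11.09, a difference of -0.77 ± 0.049. Of 21 cytosolic tRNA synthetase genes, all 21 in the brightest class, 9 rose (42.9%) and 2 fell (9.52%). The scaffold gene Aimp2 stood at 0.70 and Farsb at -0.65, and 5 rose without Ang II 6 h replicate 3.

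**Figure D3:**
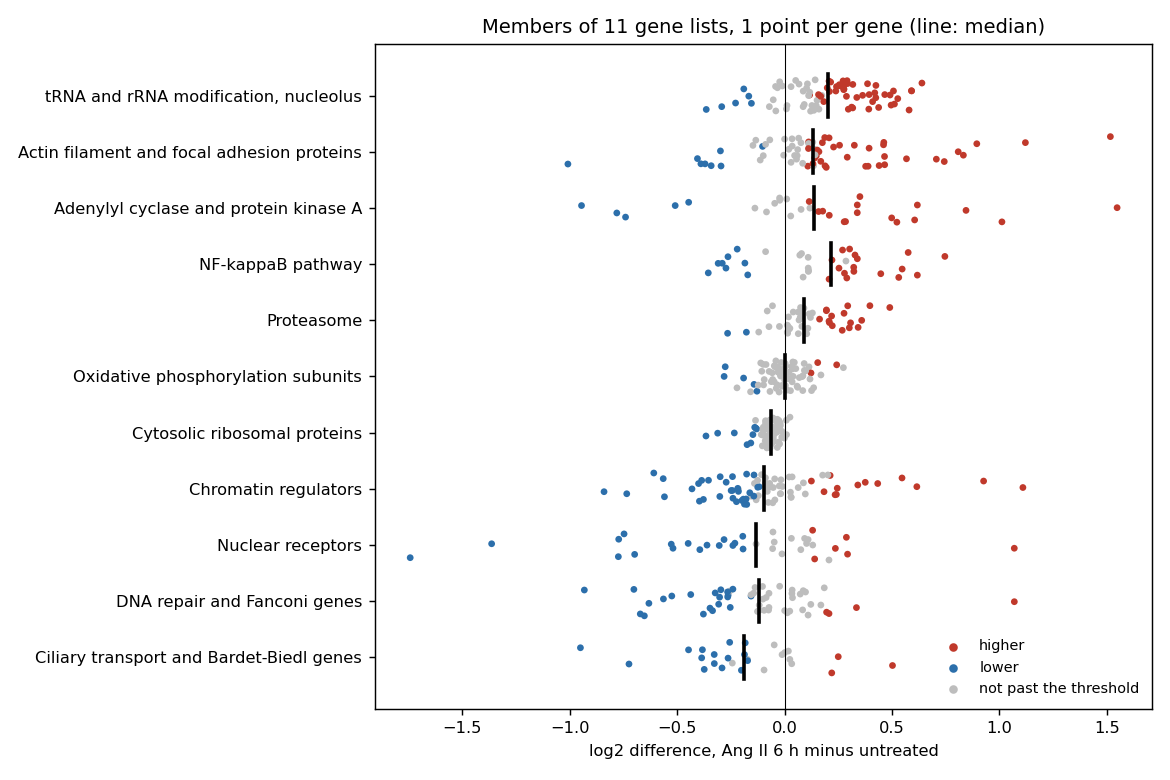
Log2 difference between 6 h of Ang II and untreated cells (x axis) for every measured member of 11 gene lists (y axis), with 1 point per gene, red for higher, blue for lower and grey for not past the threshold; black bars are list medians. The medians run from 0.21 in the NF-kappaB pathway and 0.20 in tRNA and rRNA modification to -0.13 in nuclear receptors and -0.19 in ciliary transport, and the ribosomal proteins form a tight cloud just below 0.

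Protein folding and breakdown genes rose in part. Of 45 proteasome genes 16 rose (35.6%) and 2 fell (4.44%; 1 without any 1 of the untreated arrays), all by small amounts, with Psmd5 at 0.49, Psmd10 at 0.40 and Psmc3 at 0.36. In the brightest class, which holds 33 of the 45, 33.3% of genes rose, so the share of rises is near that of genes of like brightness. The subunit of the immunoproteasome Psmb9 fell by 0.27. Of 59 heat shock and cytosolic chaperone genes 23 rose and 5 fell (39.0% and 8.47%). Of the 59, 38 are in the brightest class with its 33.3% and 25.1%. Fkbp5, a chaperone partner of steroid receptors, went from 7.38, 7.54 and 7.54 to 8.51, 8.44 and 8.63, a difference of 1.04 ± 0.085, and Hspa2, Hsph1 and Hspa4l rose by 1.00, 0.88 and 0.73. The count of falls was 2 without Ang II 6 h replicate 2 or 3, and 3 without Ang II 6 h replicate 1 or untreated replicate 1 or 2. Ubiquitin ligase genes stayed near the shares of all genes, with 36 rises (18.3%) and 42 falls (21.3%) of 197. Among them Klhl41 rose as given above and Fbxo32, a ligase of muscle wasting, fell by 0.84. Among 50 deubiquitinating enzymes Usp18, an interferon-induced protease for ISG15, went from 5.12, 5.23 and 4.55 to 8.24, 7.91 and 8.22, a difference of at least 3.16 ± 0.21, and Otub2 fell by 1.52.

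The actin cytoskeleton rose as a broad group. Of 67 genes for actin filaments and focal adhesions 35 rose (52.2%) and 8 fell (11.9%), with a median of 0.13, where 55 of the 67 are in the brightest class with 33.3% and 25.1%. Fhl3, a LIM protein of adhesions, went from 9.85, 9.88 and 9.71 to 11.30, 11.32 and 11.36, a difference of 1.52 ± 0.049. The filament extension genes Enah and Vasp rose by 1.12 and 0.74, the membrane linkers Ezr and Msn by 0.81 and 0.71, the branching complex genes Arpc5 and Actr2 by 0.57 and 0.47, and the crosslinker Actn1 by 0.47. Pdlim2, a LIM protein, fell by 1.01, and the kinase gene Src by 0.39. Of the 35 rises 8 were larger at 6 h than at both later times, where 45.5% of all rises were.

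Of 26 genes of the YAP and TEAD pathway, which senses tension and density, 10 fell (38.5%) and 6 rose (23.1%). Of the 26, 21 are in the brightest class, where 25.1% of genes fell and 33.3% rose. The target Ankrd1 went from 10.39, 10.45 and 10.47 to 8.81, 8.61 and 8.62, a difference of -1.75 ± 0.064, and the targets Ccn2 and Ccn1 fell by 0.47 and 0.33, whereas the target Axl, a receptor kinase, rose by 1.00.

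Microtubule genes moved both ways. The rises held tubulin genes, with Tuba4a at 0.95, Tubb6 at 0.91, Tubb2b at 0.51 and Tubb4b at 0.49. The falls held kinesins of cell division, with Kif11 at -0.64, Kif20a at -0.59 and Kif2c at -0.56, and so did Kif26b at -1.04. Together 11 of 49 kinesin and tubulin genes rose (22.4%) and 17 fell (34.7%). Genes of transport within cilia, the antenna-like organelles of resting cells, had the lowest median of the 60 lists: of 27 measured 15 fell (55.6%) and 3 rose (11.1%), with a median of -0.19. Only 2 of these genes were in the brightest class. Bbs2, a subunit of the complex that carries membrane proteins to the cilium, went from 8.15, 8.21 and 8.20 to 7.31, 7.02 and 7.38, a difference of -0.95 ± 0.082. Ift46 and the dynein genes Dync2li1 and Dync2h1 fell by 0.72, 0.45 and 0.39. Of 10 genes of the Hedgehog pathway, which signals through the cilium, 4 fell and 0 rose by limma's test, and at an unadjusted p below 0.05 the numbers were the same. The transducer Smo and the factors Gli2 and Gli3 fell by 0.95, 0.93 and 0.48. Without Ang II 6 h replicate 2 the rises in the Hedgehog list numbered 1.

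**Figure D4:**
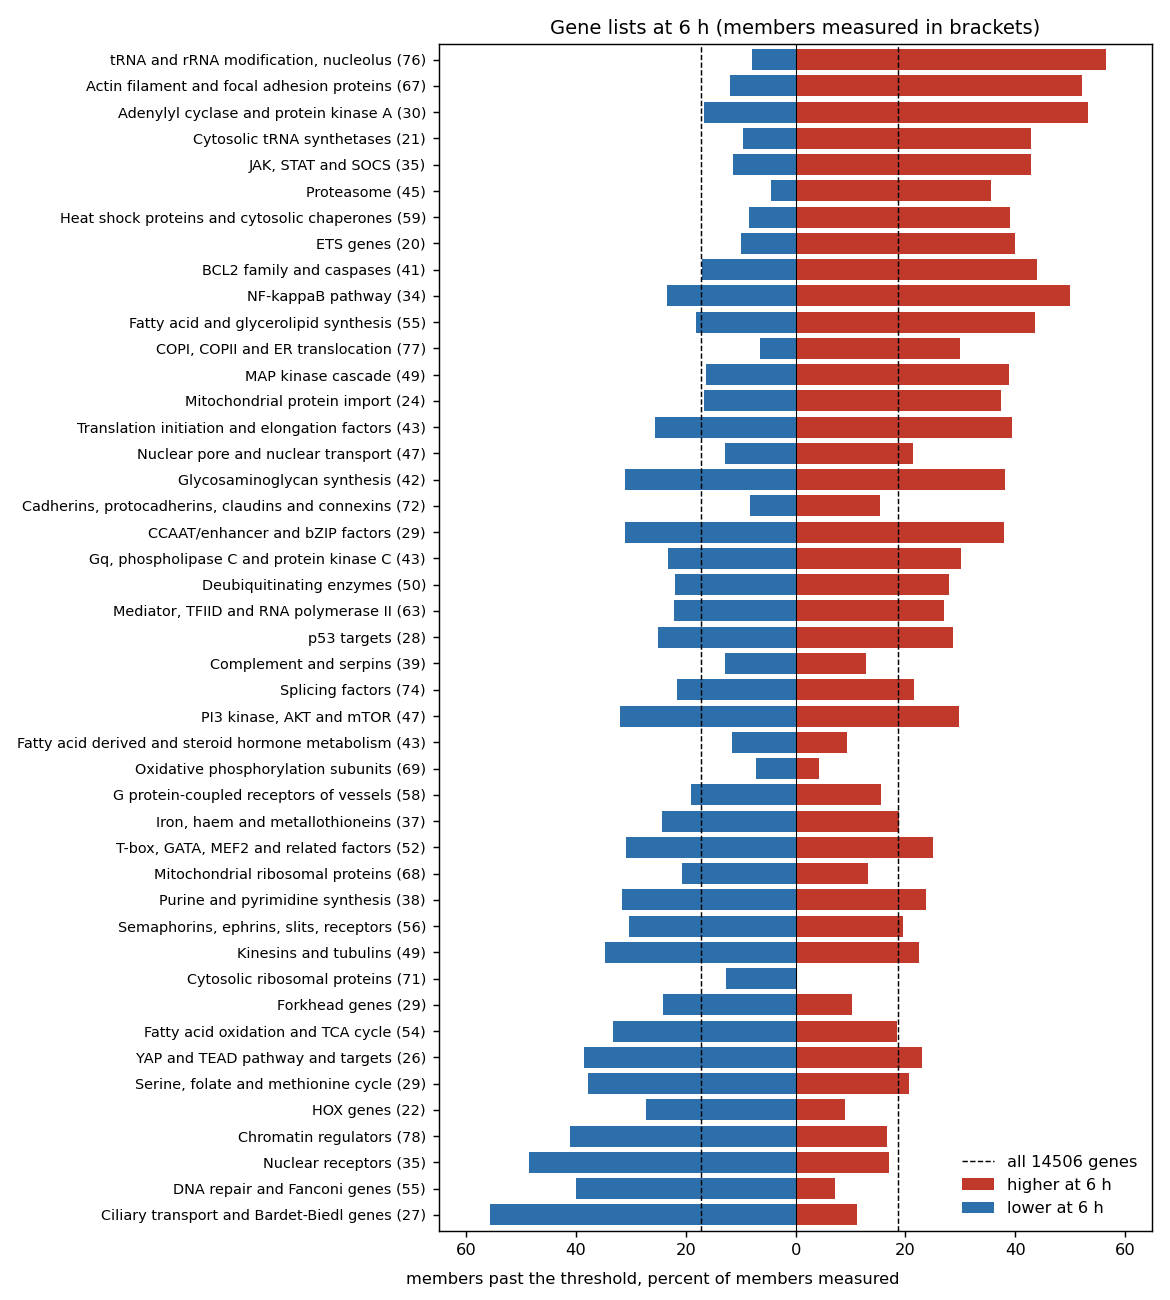
Share of the measured members of each gene list that were higher (red, to the right) or lower (blue, to the left) after 6 h of Ang II, in percent of members measured (x axis), for lists of 20 or more members (number in brackets, y axis), ordered by the difference of the 2 shares; dashed lines are the shares over all 14506 genes, 18.6% higher and 17.2% lower. RNA modification, actin and cyclic AMP genes lie at the top, and ciliary, DNA repair and nuclear receptor genes at the bottom.

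At the cell surface, guidance molecules showed large changes in both directions, with 11 rises (19.6%) and 17 falls (30.4%) of 56. Besides Sema7a, the receptor genes Epha2 and Robo1 rose by 1.39 and 1.03. The secreted repellent Sema3a went from 8.77, 8.63 and 8.72 to 7.03, 7.12 and 7.24, a difference of -1.57 ± 0.076. The neuropilins Nrp1 and Nrp2, receptors of this class of semaphorins, which also bind vascular endothelial growth factor, fell by 1.30 and 1.10, and the ephrin genes Efna5 and Efnb2 by 0.83 and 0.70. Of 72 cadherin, claudin and connexin genes 11 rose (15.3%) and 6 fell (8.33%). Pcdh18 stood at 1.64, Pcdh20 at -1.42, Gja4, a connexin of vessels, at 0.67 and Gja1, the most widespread connexin, at 0.33. Of 11 caveolar genes 5 rose (45.5%) and 3 fell (27.3%), with Cavin2 at -1.25 and Cav3, the muscle form of caveolin, at 0.92.

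Enzymes for glycosaminoglycans moved both ways. Has2, which makes hyaluronan, went from 6.60, 6.39 and 6.48 to 7.68, 7.63 and 7.94, a difference of 1.26 ± 0.10. Ugdh, which makes the sugar donor for these chains, and Chsy1, which extends chondroitin sulfate, rose by 1.16 and 0.86. Several genes for heparan sulfate were among the falls, with Hs6st1 from 10.89, 10.99 and 10.94 to 9.37, 9.31 and 9.36, a difference of -1.59 ± 0.084, and Ext1, Hs3st1, Hs2st1 and Ndst1 at -0.63, -0.61, -0.35 and -0.33, though Extl3 and Ndst2 rose by 0.77 and 0.57. In all 16 of 42 rose (38.1%) and 13 fell (31.0%), both above the shares of all genes. The division by chain was noticed in the values and was not tested.

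Membrane transporters rose more often than they fell. Of 309 solute carrier genes 74 rose (23.9%) and 46 fell (14.9%). Slc7a8, a transporter of large neutral amino acids, went from 7.91, 7.96 and 8.01 to 11.36, 11.42 and 11.44, a difference of 3.45 ± 0.05. Other amino acid carriers diverged: Slc7a3, Slc43a1, Slc7a11 and Slc7a6 rose by 1.33, 1.01, 0.73 and 0.62, and Slc7a2, a carrier of arginine and lysine, fell by 1.42, as did Slc38a4 by 1.17. Carriers of lactate and other monocarboxylates rose, with Slc16a7 at 1.01, Slc16a3 at 0.97 and Slc16a1 at 0.85. The glucose carriers Slc2a1, Slc2a6 and Slc2a3 rose by 0.74, 0.72 and 0.66, while Slc2a12 went from 8.49, 8.51 and 8.45 to 7.13, 7.00 and 7.11, a difference of -1.40 ± 0.085. Slc14a1, the urea transporter, rose by 1.85, and Slc40a1, the iron exporter ferroportin, and Slc5a3, the inositol carrier, fell by 1.37 and 1.02.

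Lipid synthesis and lipid oxidation differed in balance. Of 55 genes of fatty acid, triglyceride and phospholipid synthesis 24 rose and 10 fell (43.6% and 18.2%). The acyltransferases Gpat3, Agpat2 and Agpat4, which build glycerolipids, rose by 1.16, 0.73 and 0.73, Dgat1, which completes triglycerides, by 0.64 and Fasn, fatty acid synthase, by 0.54. Acss2, which makes acetyl-CoA from acetate, fell by 0.53. Of 54 genes of fatty acid oxidation and the citric acid cycle 18 fell and 10 rose (33.3% and 18.5%), with Hadh, an enzyme of beta-oxidation, at -0.60 and Cpt1a, which admits fatty acids to mitochondria, at -0.58. The rises numbered 6 without untreated replicate 1 or without Ang II 6 h replicate 3. Subunits of oxidative phosphorylation seldom passed the test: of 69 measured 3 rose and 5 fell, although 52 are in the brightest class. The falls numbered 3 without untreated replicate 2 or Ang II 6 h replicate 1 or 2, and 12 with a further quantile normalization; the rises numbered 8 with arrays centred on their medians, and 9 with a trended and robust variance. Of 24 genes of mitochondrial protein import 9 rose (37.5%) and 4 fell (16.7%). Tomm40, the channel of the outer membrane, stood at 0.40 and Tomm5 at -0.71.

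Nucleotide and polyamine genes moved both ways. Upp1, which splits uridine, went from 7.75, 7.87 and 7.88 to 9.87, 9.81 and 9.89, a difference of 2.02 ± 0.05, and Uck2, which salvages uridine, rose by 0.94. The falls held genes that supply deoxynucleotides, with Dctd at -0.997, Rrm1 and Rrm2 of ribonucleotide reductase at -0.48 and -0.40, Tk1 at -0.43 and Tyms at -0.45. In all 9 of 38 nucleotide genes rose (23.7%) and 12 fell (31.6%). Of 16 polyamine genes 6 rose (37.5%), 2 fell (12.5%) and 8 did not pass. Sat1, which acetylates spermidine and spermine for export, rose by 1.13, Sms, spermine synthase, by 0.92 and Odc1, which commits ornithine to the pathway, by 0.29.

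Genes of cell survival and of DNA repair had opposite balances. Of 41 genes of the BCL2 family and the caspases 18 rose (43.9%) and 7 fell (17.1%). Both protective and lethal members rose. Cflar, which blocks caspase 8, went from 9.46, 9.39 and 9.43 to 10.75, 10.76 and 10.72, a difference of 1.32 ± 0.04, and Bcl2l1 and Mcl1, which keep mitochondria closed, rose by 0.58 and 0.55. The death receptor Tnfrsf10b, the killer proteins Pmaip1, Bid and Bcl2l11, and Casp8 rose by 1.00, 0.79, 0.64, 0.50 and 0.51. The count of falls was 3 without Ang II 6 h replicate 1 and 4 without Ang II 6 h replicate 2 or untreated replicate 1 or 2. Of 55 DNA repair genes 22 fell (40.0%) and 4 rose (7.27%), with a median of -0.12 and only 5 members in the brightest class. Chek2, a checkpoint kinase, went from 6.69, 6.55 and 6.38 to 5.60, 5.59 and 5.63, a difference of -0.93 ± 0.12, and Xpa, Rad51c, Brca2, Fancd2 and Atm fell by 0.70, 0.67, 0.65, 0.63 and 0.56. Ercc1, an endonuclease subunit, was among the rises at 1.07, with 9.69, 9.73 and 9.62 untreated and 10.77, 10.73 and 10.76 at 6 h. The rises numbered 2 without untreated replicate 3 or without Ang II 6 h replicate 3.

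Many of the changes at 6 h were smaller, absent or reversed at both later times. The test also counts genes that later crossed the untreated level, such as Sgk1 and Nr4a3 below. No earlier treated time was among the arrays, so a peak at 6 h is not shown. Of the genes higher at 6 h 1230 (8.48% of all genes, 45.5% of the rises) were also higher at 6 h than at both 12 h and 24 h, and of the genes lower at 6 h 977 (6.74% of all, 39.3% of the falls) were lower than at both, each difference at a limma adjusted p under 0.05. These 3 tests share the 6 h arrays. The chromatin gene Dot1l belonged to them, with a difference from untreated cells of 1.11 at 6 h, -0.03 at 12 h and -0.02 at 24 h. Likewise Map2k3 stood at 1.19, -0.10 and -0.18, and Sgk1 at 1.05, -0.59 and -0.52. The nuclear receptor gene Nr4a3 stood at 1.07, -1.09 and -0.62. Among the falls, Otub2 stood at -1.52, -0.27 and 0.12, and Foxn3 at -1.66, -0.64 and -0.06. In each of these 6 genes the value at 24 h was nearer to the untreated level than that at 6 h. The genes were chosen for a change larger at 6 h than later, so this largely follows from the choice.

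Some genes had crossed to the other side of the untreated level by 24 h. Of the rises 329 passed as lower at 24 h, and of the falls 240 passed as higher, with 6 h and 24 h also different from each other. Slc7a8 differed from untreated cells by 3.45 at 6 h and by -0.39 at 24 h, Fosl1 by 2.35 and -0.46, Upp1 by 2.02 and -0.44, and Dhrs9, a retinol dehydrogenase, by 1.76 and -0.51. Rnd1 stood at 1.72 and -0.27. In the other direction Rab39a, a small GTPase of vesicle traffic, differed by -1.31 at 6 h and 1.13 at 24 h, Slc7a2 by -1.42 and 0.41, and Dbp by -1.32 and 0.54. Rai2 and Lrrtm3 stood at -1.37 and 0.45, and at -1.31 and 0.39. These genes were chosen for this pattern, so their values are a description.

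**Figure D5:**
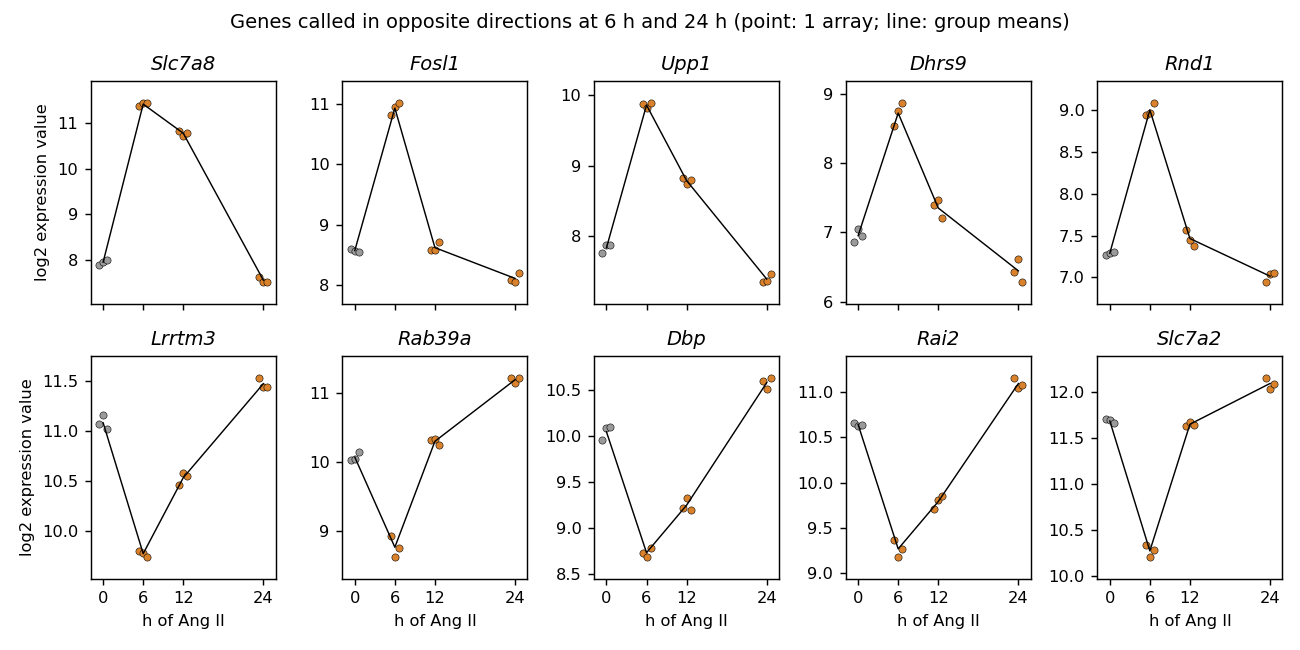
Log2 expression value (y axis, scaled per gene) on every array against hours of Ang II (x axis) for 10 genes that passed at 6 h and at 24 h in opposite directions, with grey points for untreated and orange points for treated arrays, 3 per time, and lines through the group means. In the upper row the 6 h arrays lie above the untreated ones and the 24 h arrays below them, and in the lower row the reverse.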

How the data were processed

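The deposited values are log2 expression values for each probe set on each array. The authors used Partek and RMA, according to the submitters' processing notes, and their versions and filters were not given in the sources. Array medians were 7.22 to 7.32. Of 29214 probe sets, a platform annotation named 15310 with exactly 1 gene symbol; for 527 genes with several probe sets the brightest over 12 arrays was used. Arrays were grouped by title, 3 per group, and 0 columns belonged to other samples.

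Tests used limma 3.58.1 under R 4.3.3 (lmFit, eBayes, 4 group means over 12 arrays, 8 residual degrees of freedom), two-sided, with Benjamini-Hochberg adjustment over 14506 genes at 0.05. On simulated data for this comparison, with 14506 genes of which 200 were changed, the fit recovered 68% of genes changed 1.25-fold, 90% at 1.5-fold and 100% at 2-fold and 4-fold, with 17 unchanged genes called.

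The members and 60 gene lists were chosen with earlier results of these data known. 1 further list is not reported here. Genes named are ranks 11 to 30 in each direction among genes that passed and whose groups did not overlap. Others are up to 4 leading members per list, further list members where a list is described, and the brightest genes of large change. Also named are genes larger at 6 h than later or opposite at 24 h, the Ang II receptors and genes whose promoter is shown. Same-numbered arrays did not deviate together (correlations -0.0375, -0.0235 and 0.0696), so the numbers were not used as pairs. Alternatives were other subsets of arrays and genes, normalizations and variance models, array weights and a minimum fold. Tables and figures were made with Python 3.11.15, pandas 2.3.3 and matplotlib 3.10.9.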

Additional observations from a re-analysis of the deposited data

Results flagged for a closer look

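The difference of treated from untreated (0 h) cells had opposite signs at 6 h and at 24 h in a set of genes, with both differences and the difference of the times past the threshold of limma's test (adjusted p under 0.05). There were 329 genes higher at 6 h and lower at 24 h, and 240 genes lower at 6 h and higher at 24 h. The largest of them by the value at 6 h minus that at 24 h, on the log2 scale, were Slc7a8 at 3.84, Fosl1 at 2.81, Upp1 at 2.47, Dhrs9 at 2.27 and Rnd1 at 1.99 in the first direction. In the second they were Rab39a at -2.44, Dbp at -1.86, Slc7a2 at -1.83, Rai2 at -1.82 and Lrrtm3 at -1.70. Each holds 3 arrays per time.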

How the results depend on the processing

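Of the genes past the threshold 0 passed in the other direction under any alternative fitted per gene; the fit of all probe sets gave only counts of probe sets, 3476 higher and 3533 lower. The counts of higher, of lower and of genes larger at 6 h than at both later times kept within 1.5 times their main values of 2703, 2488 and 2207 under all alternatives run but a minimum change of 1.5-fold, which left 234, 235 and 70. Leaving out single arrays gave 2279 to 2545, 2120 to 2254 and 1799 to 2014. With the replicate number as a block the counts were 2631, 2428 and 2108; the numbers share no more than a label. Comparing 6 h with later times was not run with the 2 groups alone, which lack those arrays. Centring arrays on their medians gave 3019 and 2379, or 55.9% of calls higher against 52.1%.

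Of 397 named genes that passed, 159 also passed the test against a minimum of 1.5-fold and 238 did not. Under the other alternatives fitted per gene 388 kept the call wherever they were tested, and 9 lost it under at least 1, among them Tbp and Rpl13a. The precision is set by 3 arrays per group, and dim genes were measured least precisely.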

Other observations

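Of 17 measured genes often used as references for quantitative PCR 3 rose (17.6%) and 2 fell (11.8%) at 6 h. Hprt1, a purine salvage enzyme, rose by 0.31 on the log2 scale, Ywhaz by 0.23 and Tbp by 0.16, while Sdha, a subunit of succinate dehydrogenase, fell by 0.29 and the ribosomal gene Rpl13a by 0.13. The call of Tbp was lost without any 1 of the 3 untreated arrays, without Ang II 6 h replicate 1 or 2 and after a further quantile normalization, and that of Rpl13a without untreated replicate 1 or Ang II 6 h replicate 2.

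Genes of early secretory traffic (COPI, COPII and translocation into the endoplasmic reticulum) held 23 rises (29.9%) and 5 falls (6.49%) among 77 measured. The cargo receptor gene Tmed5 rose by 0.53, the small GTPase gene Arf3 by 0.53 and the translocation gene Tram1 by 0.33, and Sec16b fell by 0.67. As 61 of the 77 are in the brightest level class, where 33.3% of genes rose and 25.1% fell, the falls made up a smaller share than in that class. They numbered 3 without untreated replicate 2 or 3 or Ang II 6 h replicate 1 or 2, and 9 with a further quantile normalization. Of 29 genes of the serine, folate and methionine cycle 6 rose (20.7%) and 11 fell (37.9%). Slc25a32, the mitochondrial folate carrier, and Mthfd1l and Shmt2 of the mitochondrial folate cycle rose by 0.50, 0.38 and 0.32, while Mthfd2, also mitochondrial, and the methionine cycle gene Ahcy fell by 0.30 and 0.39. Of 37 genes of iron and haem 7 rose (18.9%) and 9 fell (24.3%). The haem oxygenase genes Hmox2 and Hmox1 stood at 0.52 and 0.36 and the metallothionein gene Mt1 at -0.50. Of 28 targets of p53 8 rose and 7 fell, both shares above the 18.6% and 17.2% of all genes. But 24 of the 28 lay above the median level, where by level class 28.7% to 33.3% of genes rose and 25.1% to 27.4% fell. Both list shares were close to the lower ends of these ranges.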
